A study of Arabidopsis thaliana with 10 samples.

Results

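The strong double mutant atbmi1ab was compared with wild type (WT) in seedlings of Arabidopsis thaliana, ecotype Col-0, harvested 10 days after germination (DAG). The comparison used 4 of the 10 libraries of the study, chosen by the genotype in their labels: 2 labelled as the strong double mutant (atbmi1ab_strong below) and 2 labelled Wild Type. The other 6 libraries, 2 each of the triple mutant atbmi1abc and of the single mutants atbmi1a and atbmi1b, entered the fit for its estimate of spread. They are cited where their levels bear on a gene. All plants were of the same ecotype and age, and the labels give no treatment, mutant allele, sowing batch or harvest time. What separates a strong double mutant from other seedlings of that genotype is likewise not given.

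Polycomb repressive complex 1 (PRC1) contains the RING-type proteins AtBMI1A, AtBMI1B and AtBMI1C. Together with the RING1 proteins it attaches ubiquitin to histone H2A and helps to keep developmental genes silent. Polycomb repressive complex 2 (PRC2) methylates histone H3 at many of the same genes. In seedlings Polycomb proteins are known for shutting off the seed maturation programme after germination. That programme is run by LEC1-type, B3-domain (ABI3, FUS3, LEC2) and bZIP transcription factors, which switch on the genes of storage proteins, oil bodies and late embryogenesis abundant (LEA) proteins.

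Each library gives a level per locus in FPKM, fragments scaled to gene length and sequencing depth. The FPKM values summed to 813905 and 808718 in atbmi1ab_strong, against 886169 and 990295 in WT. Depth relative to WT replicate 1, read from the spacing of low values, was 1.02 and 0.979 in atbmi1ab_strong and 0.993 in WT replicate 2. Chloroplast-encoded loci held 0.106% and 0.0193% of the sum in atbmi1ab_strong, against 0.744% and 2.24% in WT. Replicates differed by more than 1 on the log2 scale at 167 loci in atbmi1ab_strong and at 162 in WT. Of 27086 loci, 19460 averaged 1 FPKM or more across the 10 libraries, and limma tested these on log2(FPKM + 1). A locus was called higher or lower where its Benjamini-Hochberg adjusted p was under 0.05. Fold changes below are log2 of atbmi1ab_strong over WT, with the standard error (SE) of the fit. Rose and fell are used of called genes.

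In atbmi1ab_strong 6193 loci (31.8%) were called higher and 6341 (32.6%) lower, so 64.4% of the tested loci were called and list counts have to be read against these shares. The largest changes leaned upwards: 769 loci were higher by more than 3, against 558 lower by more than 3, and 209 were higher by more than 5, against 88 lower by as much. The 2 groups did not overlap at 16351 loci (84.0%). The median log2 fold change of all tested loci was 0.0014. On chromosomes 1 to 5 the share called higher lay between 31.0% and 32.5%, and the share called lower between 31.4% and 33.1%. Of 1352 tested loci with a WT mean under 1 FPKM, 80.4% were called higher, and of 697 with an atbmi1ab_strong mean under 1 FPKM, 63.3% were called lower. Such loci pass the filter through the libraries where they are high, so counts over tested members of a list silent in WT lean upwards.

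Among the targeted genes, AtBMI1B (AT1G06770) was lower in the mutant and AtBMI1A (AT2G30580) was not. AtBMI1B was at 1.7 and 1.91 FPKM in atbmi1ab_strong, against 6.34 and 5.86 FPKM in WT (a log2 fold change with SE of -1.34 ± 0.12; adjusted p = 2.95e-05). AtBMI1A was at 7.89 and 9.19 FPKM in atbmi1ab_strong, against 6.91 and 6.08 FPKM in WT, with its mutant libraries the higher ones and no call (0.35 ± 0.16; adjusted p = 0.0958). A level per locus does not show which part of a transcript was read, so the AtBMI1A value shows no loss of reads at the locus and gives nothing on its protein. The atbmi1a libraries stood at 26.8 and 33.4 FPKM of AtBMI1A, above all other libraries. Directions below are those of the libraries labelled atbmi1ab_strong. The third gene of the family, AtBMI1C (AT3G23060), was at 3.42 and 3.22 FPKM in atbmi1ab_strong, against 0.136 and 0.0456 FPKM in WT (1.99 ± 0.18; adjusted p = 3.42e-05), with no overlap between the groups.

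The rest of PRC1 was not uniformly lower. RING1B, a RING-finger partner of the AtBMI1 proteins, was at 16.9 and 18 FPKM in atbmi1ab_strong, against 5.73 and 6.13 FPKM in WT (1.41 ± 0.10). RING1A rose by 0.75 ± 0.14 and VRN1, a DNA-binding protein of the flowering pathway, by 0.52 ± 0.084. EMF1, a plant-specific PRC1-associated protein, fell (-0.66 ± 0.13), and so did LHP1, which binds methylated histone H3 (-0.28 ± 0.10). In all, 4 of 8 PRC1 genes were higher and 3 lower, beside 31.8% and 32.6% of all tested loci. Of 9 tested PRC2 and VEL-family genes 3 rose and 2 fell: the cold-induced VIN3 was at 1.02 and 1.42 FPKM in atbmi1ab_strong and listed at 0 in both WT libraries, VRN5 rose by 0.42 ± 0.098 and MSI1 by 0.37 ± 0.14, VEL1 fell (-0.99 ± 0.088) and the methyltransferase gene CLF fell (-0.43 ± 0.14). The second methyltransferase gene, SWN, was not called (0.19 ± 0.10). The call of MSI1 was lost without any 1 of the 4 libraries, and those of LHP1 and CLF without atbmi1ab_strong replicate 2 or either WT library. VRN5 was called lower with the single mutants as reference (-0.29).

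Of 13 Trithorax-like factors, demethylases and remodellers 4 rose and 2 fell, and of 11 tested recruiters of Polycomb 4 rose and 3 fell. Of all tested loci 31.8% rose and 32.6% fell. PKR2, a CHD3-type chromatin remodeller of the PICKLE family, was at 13.2 and 15.6 FPKM in atbmi1ab_strong, against 0.0213 and 0.0215 FPKM in WT (3.91 ± 0.33). ULT2 and ULT1, SAND-domain proteins with Trithorax-like function, were at 6.27 and 4.63 FPKM in atbmi1ab_strong, against 0.216 and 0.109 FPKM in WT (2.46 ± 0.30), and at 42.3 and 39.3 FPKM in atbmi1ab_strong, against 17.62 and 16.8 FPKM in WT (1.2 ± 0.14). VAL1, a B3-domain protein that recruits Polycomb to seed genes, was at 39.1 and 40.6 FPKM in atbmi1ab_strong, against 12.1 and 13.4 FPKM in WT and also rose (1.57 ± 0.12). SHL and BPC1, a histone reader and a GAGA-binding factor, fell (-1.33 ± 0.11 and -1.08 ± 0.14). Among 11 tested DNA methylation genes 5 rose and 0 fell, led by the demethylase ROS1 (1.1 ± 0.12) and the methyltransferase CMT2 (0.79 ± 0.083). The remodeller genes PKL, BRM and SYD were not called (-0.20 ± 0.094, -0.013 ± 0.092 and -0.040 ± 0.095). PKL was called lower without WT replicate 2. BRM and SYD were called higher with the single mutants as reference (0.34 and 0.45).

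**Figure D1:**
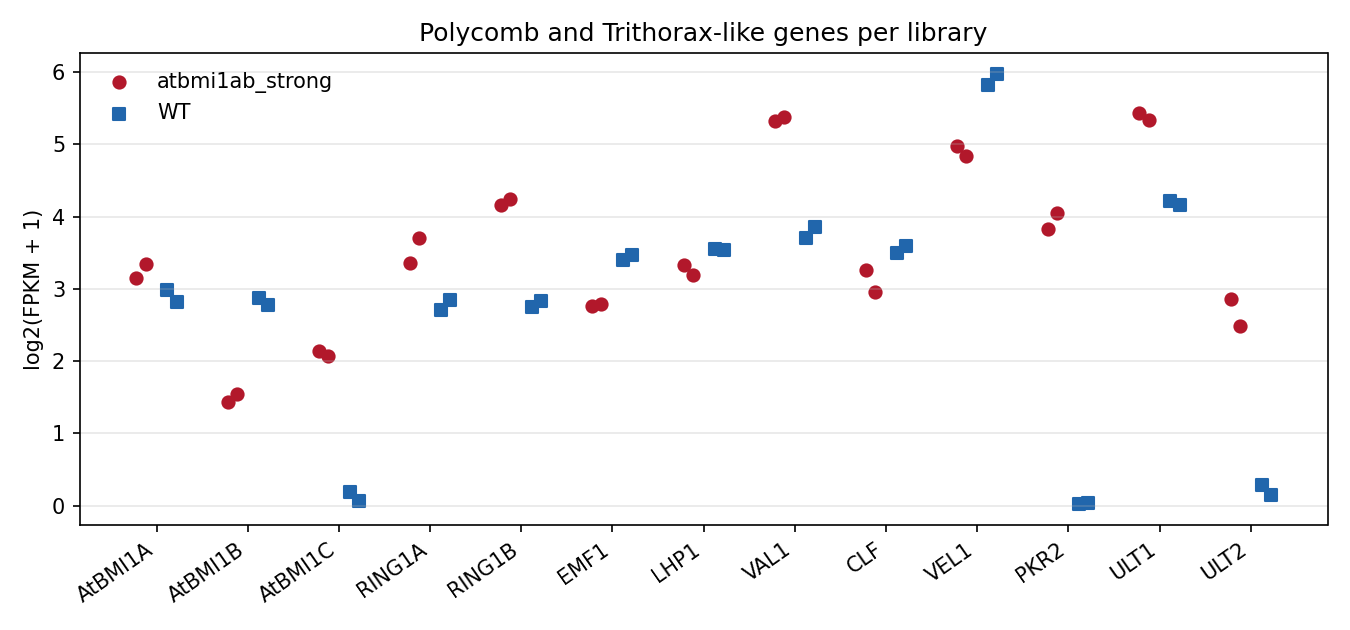
Level of 13 Polycomb and Trithorax-like genes as log2(FPKM + 1), with 1 point per library (circles, atbmi1ab_strong; squares, WT; n = 2 each). AtBMI1B lies lower in atbmi1ab_strong, AtBMI1A does not, and AtBMI1C, PKR2 and ULT2 lie near 0 in both WT libraries.

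Seed regulators were expressed in the mutant seedlings at levels that WT seedlings lacked. Of 20 tested embryo and maturation regulators 17 rose and 2 fell, with a median of 2.83; 10 of the 20 had a WT mean under 1 FPKM. L1L, a LEC1-like subunit of the NF-Y complex, was at 105 and 119.9 FPKM in atbmi1ab_strong, against 0 and 0.193 FPKM in WT (6.7 ± 0.61; adjusted p = 3.71e-05). The B3-domain genes ABI3 and FUS3 were at 47 and 54.8 FPKM in atbmi1ab_strong, against 0.052 and 0.0263 FPKM in WT (5.64 ± 0.45), and at 54.9 and 56.3 FPKM in atbmi1ab_strong, against 0.182 and 0.122 FPKM in WT (5.62 ± 0.54). bZIP67, a partner of L1L in switching on storage genes, was at 62.8 and 67.2 FPKM in atbmi1ab_strong and at 0 in each WT library. AIL5, an AP2-type embryo gene, was at 85.2 and 94.3 FPKM in atbmi1ab_strong, against 1.78 and 2.04 FPKM in WT (4.96 ± 0.27), and the dormancy gene DOG1 was at 84.5 and 114 FPKM in atbmi1ab_strong, against 4.11 and 6.13 FPKM in WT (4.04 ± 0.50).

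The set was not complete. LEC1 itself stayed low in the mutant, at 1.22 and 0.878 FPKM in atbmi1ab_strong, against 0.0958 and 0 FPKM in WT (0.96 ± 0.26; the call was lost under quantile normalization and without atbmi1ab_strong replicate 1 or WT replicate 2), and reached 14.7 and 15.7 FPKM in atbmi1abc. The difference between the triple and the double mutant was 2.99 ± 0.26. WOX2, a homeobox gene of the early embryo, was not called in the double mutant, at 0.636 and 1.21 FPKM in atbmi1ab_strong, against 0.755 and 0.544 FPKM in WT, and reached 30.2 and 17.7 FPKM in atbmi1abc (3.67 ± 0.25 over atbmi1ab_strong). LEC2 was below the filter, at 0 and 0.0651 FPKM in atbmi1ab_strong, against 0 and 0.0645 FPKM in WT. Against the majority, WRI4, a regulator of wax synthesis in stems, fell to 5.81 and 5.15 FPKM in atbmi1ab_strong, against 47.1 and 58.8 FPKM in WT (-3.05 ± 0.17), whereas its seed oil relative WRI1 rose (3.28 ± 0.20). The MADS-box gene AGL18 fell as well (-0.97 ± 0.13).

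Storage protein and oil body transcripts made up a large part of the mutant's RNA. The 5 genes of 2S albumins, small storage proteins of the seed, held 6.44% and 7.61% of the FPKM sum in atbmi1ab_strong, against 0.00295% and 0.00246% in WT. Oil body proteins held 3.28% and 3.99% of the FPKM sum in atbmi1ab_strong, against 0.00268% and 0.00198% in WT. The most abundant of these transcripts, SESA3, was at 29228 and 34820.0 FPKM in atbmi1ab_strong, against 13.9 and 12.7 FPKM in WT (11.12 ± 1.5), and the oleosin OLEO1, which coats oil bodies, was at 13409 and 16195 FPKM in atbmi1ab_strong, against 7.95 and 6.31 FPKM in WT (10.83 ± 1.56). CLO1, an oil body caleosin, was at 1447 and 1831 FPKM in atbmi1ab_strong, against 1.48 and 0.166 FPKM in WT (9.9 ± 1.25). In each case both mutant libraries lay far above both WT libraries. The SE values share their estimate of spread with atbmi1a, whose replicates differed: SESA3 was at 578 FPKM in replicate 1 and 9.31 FPKM in replicate 2. Without atbmi1a replicate 1 SESA3 had a log2 fold change of 11.12 (adjusted p = 5.98e-08) and OLEO1 of 10.83 (adjusted p = 1.36e-07).

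All 5 albumin genes rose. So did 7 of 8 tested oil body genes; CLO3, a caleosin expressed outside seeds, was not called (0.75 ± 0.39), but was called higher without atbmi1a replicate 1 and in a fit of the 4 compared libraries alone. Of the 12S and 7S globulins, the cruciferin CRU2 was at 8906 and 10854 FPKM in atbmi1ab_strong, against 3.01 and 3.03 FPKM in WT (11.26 ± 1.33) and the vicilin-like PAP85 at 1805 and 2172 FPKM in atbmi1ab_strong, against 1.97 and 2.09 FPKM in WT (9.35 ± 1.28). Neither mutant library of atbmi1ab_strong listed more than 0 for the other cruciferins, CRA1 and CRU3. CRA1 was at 13.6 and 12.4 FPKM in WT and at 22377 and 28378 FPKM in atbmi1abc, and CRU3 at 14.2 and 11.2 FPKM in WT and at 17461 and 25294 FPKM in atbmi1abc. An exact 0 can be a failed estimate in such files, so no fold is given for either gene. Neither was called against WT, but both were called lower without atbmi1a replicate 1, with only the compared groups, with a pseudocount of 0.1 and with the single mutants as reference. CRU3, close to the threshold, was also called lower under quantile normalization, filters on a mean of 5 FPKM or on the 4 compared libraries, the replicate block and removal of organelle genes. Albumin genes are similar to each other in sequence, as are cruciferin genes, and reads may have been split within each family.

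**Figure D2:**
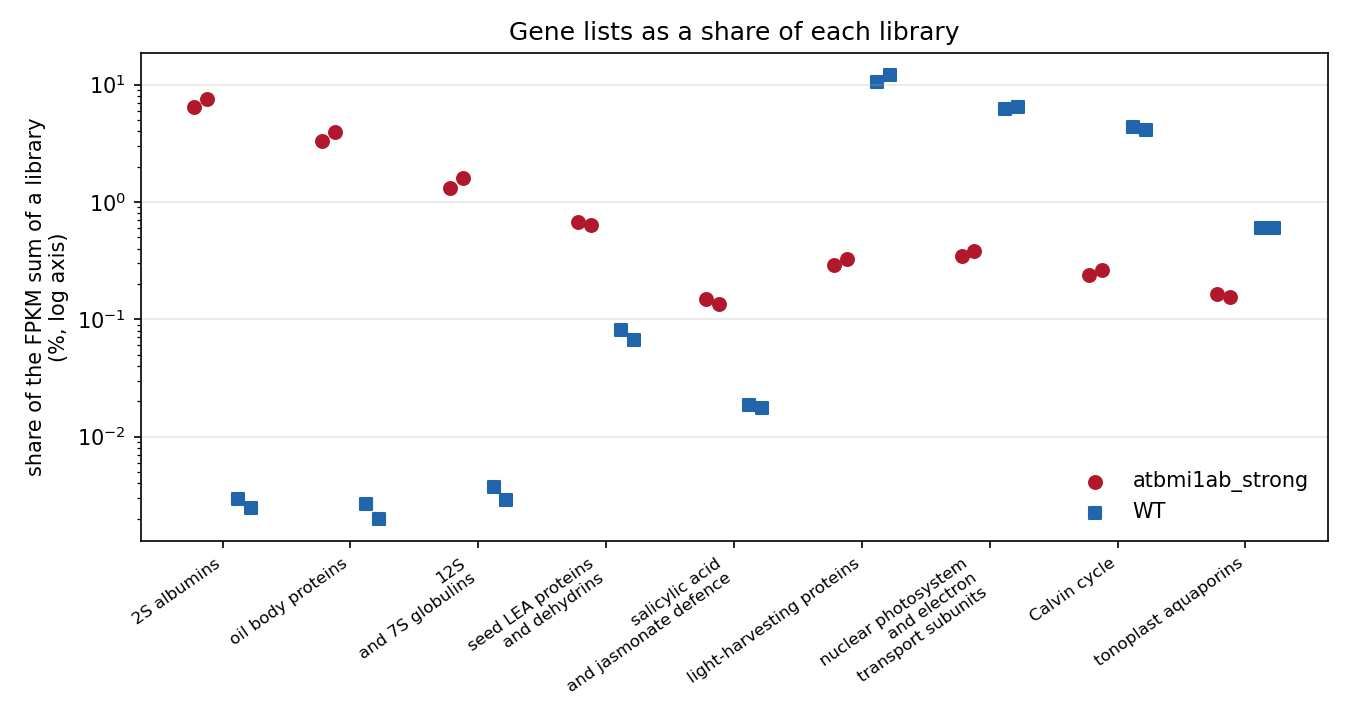
Summed FPKM of 9 gene lists as a share of each library's FPKM sum in percent, on a log axis (circles, atbmi1ab_strong; squares, WT; 1 point per library, n = 2 each). The seed and defence lists lie higher in atbmi1ab_strong, and the light-harvesting, photosystem, Calvin cycle and tonoplast aquaporin lists lie higher in WT.

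Seed storage promoters are known for RY elements, which B3-domain proteins bind, and for G-box-type elements, which bZIP proteins bind. Promoter windows of 250 bases before the RefSeq gene start (TAIR10.1) were searched on both strands for the RY core CATGCA, the G-box CACGTG and the I-box GATAAG of light-regulated promoters. Matches of the RY core can overlap each other, and matches of different motifs may share bases. Windows of genes that rose, SESA3 (chr4:13611546-13611795), OLEO1 (chr4:12900180-12900429), both on the plus strand, and FUS3 (chr3:9856213-9856462), on the minus strand, are shown with RY and G-box matches in capitals. RBCS2B (chr5:15382072-15382321, minus strand), a Rubisco small-subunit gene that fell, is shown with I-box and G-box matches in capitals.
SESA3: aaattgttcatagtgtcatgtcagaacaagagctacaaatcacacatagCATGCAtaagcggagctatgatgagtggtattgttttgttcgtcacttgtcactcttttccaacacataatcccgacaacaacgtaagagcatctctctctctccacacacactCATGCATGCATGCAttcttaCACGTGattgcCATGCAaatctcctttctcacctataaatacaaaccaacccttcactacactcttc
OLEO1: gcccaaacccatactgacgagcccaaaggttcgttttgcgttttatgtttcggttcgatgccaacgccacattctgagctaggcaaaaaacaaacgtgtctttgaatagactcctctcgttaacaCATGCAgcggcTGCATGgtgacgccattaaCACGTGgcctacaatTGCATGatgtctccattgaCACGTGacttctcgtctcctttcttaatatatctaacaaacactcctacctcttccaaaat
FUS3: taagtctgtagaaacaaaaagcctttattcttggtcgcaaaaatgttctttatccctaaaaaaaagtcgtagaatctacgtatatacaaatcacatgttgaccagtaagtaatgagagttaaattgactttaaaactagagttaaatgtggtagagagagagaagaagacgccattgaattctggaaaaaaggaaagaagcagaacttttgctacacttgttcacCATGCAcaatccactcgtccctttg
RBCS2B: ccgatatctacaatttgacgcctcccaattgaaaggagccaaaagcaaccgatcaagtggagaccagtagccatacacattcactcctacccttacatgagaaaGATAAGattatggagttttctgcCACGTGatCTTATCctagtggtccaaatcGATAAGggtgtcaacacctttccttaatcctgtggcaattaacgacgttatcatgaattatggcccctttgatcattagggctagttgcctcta
The SESA3 window holds 7 matches of the RY core, some of which overlap, and 1 G-box, OLEO1 3 and 2, and FUS3 1 RY core. The RBCS2B window holds 3 I-boxes and 1 G-box.

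Across 19072 promoter windows of tested loci the RY core was in 8.24%, the G-box in 7.64% and both in 0.776%. Among the 766 windows of loci higher by more than 3 in atbmi1ab_strong, the shares were 21.7%, 18.1% and 5.74%. Among the 35 storage, oil body and LEA genes with a window they were 57.1%, 51.4% and 31.4%. Among the 70 windows of the light-harvesting, photosystem and Calvin lists, of whose genes all but 1 fell, they were 14.3%, 17.1% and 0%. Among the 6796 windows of loci not called they were 6.7%, 6.36% and 0.397%. The I-box went the other way, with 88 of the 500 windows of loci lower by more than 3, 10.8% of those higher by more than 3 and 12.3% of all. The motif GAGAGA, which GAGA-binding factors recognise, was in 20.1% of windows of loci higher by more than 3, 91 of the 500 lower by as much and 19.2% of all. A match is a run of letters and not a shown binding site.

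**Figure D3:**
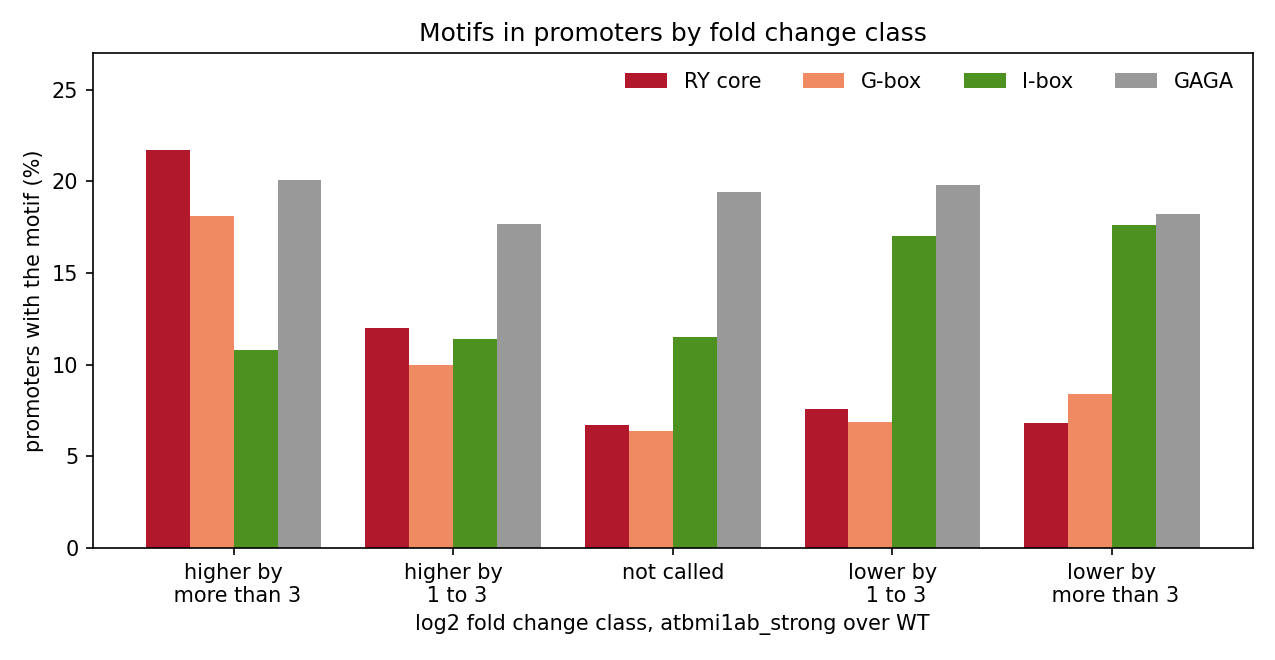
Share of promoter windows (percent, both strands) that hold the RY core, G-box, I-box or GAGA motif, by class of log2 fold change of atbmi1ab_strong over WT; each bar is a share of 500 to 6796 windows. RY core and G-box shares are greatest in the class higher by more than 3, and I-box shares are greatest in both lower classes.

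Genes for making seed oil rose with the storage genes. Of 29 fatty acid and oil synthesis genes 22 rose and 5 fell (median 1.12). FAE1, which elongates fatty acids to the long chains of seed oil, was at 372 and 425 FPKM in atbmi1ab_strong, against 0.30 and 0.201 FPKM in WT (8.32 ± 0.88). SUS2 (AT5G49190) and SUS3, sucrose synthases of the developing seed, rose by 7.25 ± 0.51 and 3.54 ± 0.21. FAD3, a desaturase, was at 778 and 916 FPKM in atbmi1ab_strong, against 87.7 and 83.6 FPKM in WT (3.29 ± 0.14), TAG1, the acyltransferase that completes triacylglycerol, rose by 3.26 ± 0.22, and the thioesterase FATA by 2.92 ± 0.16. Of 3 genes of alternative routes to triacylglycerol, PDAT1 and DGAT3 fell (-1.27 ± 0.11 and -1.35 ± 0.20) and DGAT2 was not called (0.26 ± 0.11). DGAT2 was called higher under geometric-mean scaling, under quantile normalization, without WT replicate 2 and with the single mutants as reference. In the triple mutant 20 of the 29 genes were higher than in the double mutant and 1 was lower. In that comparison 32.1% of all tested loci were higher and 25.2% lower.

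Genes for burning oil after germination were higher as well. Of 19 oil breakdown and glyoxylate cycle genes 11 rose and 4 fell (median 0.63). The glyoxylate cycle enzymes ICL and MLS were at 361 and 462 FPKM in atbmi1ab_strong, against 42.4 and 3.1 FPKM in WT (4.94 ± 1.25), and at 190.3 and 236 FPKM in atbmi1ab_strong, against 10.5 and 6.35 FPKM in WT (4.53 ± 0.40). The WT libraries differed from each other in ICL, and without WT replicate 2 its call was lost (adjusted p = 0.0578). MFP2, of peroxisomal beta-oxidation, rose by 1.97 ± 0.17, PMDH1 by 1.35 ± 0.14 and PCK1, which feeds sugar synthesis, by 1.34 ± 0.10. PMDH2, the second peroxisomal malate dehydrogenase, went the other way, at 10.7 and 11.3 FPKM in atbmi1ab_strong, against 544 and 636 FPKM in WT (-5.62 ± 0.13). The oil lipase gene SDP1 fell (-1.17 ± 0.17), but was called higher with the single mutants as reference (0.41).

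LEA and dehydrin genes, whose products protect drying cells, rose in 16 of 18 cases and 1 fell (median 4.16). LEA4-5 was at 307 and 379 FPKM in atbmi1ab_strong, against 0.428 and 1.19 FPKM in WT (7.6 ± 0.60) and ECP63 at 281 and 374 FPKM in atbmi1ab_strong, against 0.206 and 0.052 FPKM in WT (8.17 ± 0.81). Some other members of the list stayed far below these levels. EM1 was at 9.19 and 16.5 FPKM in atbmi1ab_strong, against 0 and 0.101 FPKM in WT. EM6 was at 1.97 and 3.23 FPKM in atbmi1ab_strong, against 0.668 and 0.504 FPKM in WT. M17 fell to 0.778 and 0.605 FPKM in atbmi1ab_strong, against 2.48 and 2.1 FPKM in WT (-0.96 ± 0.22). The dehydrins LTI30 and COR47, also known from cold and drought, were at 949.7 and 765 FPKM in atbmi1ab_strong, against 18.8 and 20.8 FPKM in WT (5.36 ± 0.27), and at 1014 and 763 FPKM in atbmi1ab_strong, against 227 and 202 FPKM in WT (2.03 ± 0.18). These dehydrins parted from the seed genes in the triple mutant, where LTI30 was at 53.8 and 93.6 FPKM in atbmi1abc (-3.57 ± 0.27 against atbmi1ab_strong) and COR47 at 17.5 and 15.1 FPKM in atbmi1abc (-5.67 ± 0.18), below its WT level.

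Of 9 genes of vacuolar processing and sorting 7 rose and 1 fell. TIP3;1 and TIP3;2, aquaporins of the protein storage vacuole, were at 1278 and 1488 FPKM in atbmi1ab_strong, against 1.31 and 0.806 FPKM in WT (9.4 ± 1.24), and at 429.9 and 586 FPKM in atbmi1ab_strong, against 0.877 and 1.4 FPKM in WT (7.89 ± 0.90). BETA-VPE, the protease that matures storage proteins, was at 294 and 361 FPKM in atbmi1ab_strong, against 2.8 and 3.3 FPKM in WT (6.34 ± 0.62), and the vacuolar sorting receptor VSR1 rose by 1.21 ± 0.095. GAMMA-VPE, the vegetative form, fell (-0.74 ± 0.14). The vegetative tonoplast aquaporins TIP2;1 and TIP1;2 were at 200.1 and 185 FPKM in atbmi1ab_strong, against 1889 and 2005 FPKM in WT (-3.33 ± 0.20), and at 427 and 394 FPKM in atbmi1ab_strong, against 2571 and 2938 FPKM in WT (-2.74 ± 0.091). Of 6 tested vegetative TIP genes 0 rose and 3 fell. Of these TIP2;2 lost its call without either atbmi1ab_strong library, without WT replicate 2 and with a pseudocount of 0.1.

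Markers of cell types outside the embryo were counted beside the seed genes. Of 10 endosperm markers 2 passed the filter, of 12 seed coat markers 3, and of 14 pollen markers 3. Summed over each list, endosperm markers reached 14.3 and 15.1 FPKM in atbmi1ab_strong, against 5.91 and 3.91 FPKM in WT, seed coat markers 178 and 167 FPKM in atbmi1ab_strong, against 156 and 164 FPKM in WT, and pollen markers 9.56 and 11.1 FPKM in atbmi1ab_strong, against 6.03 and 6.92 FPKM in WT. AGL80, of the central cell, was at 7.54 and 6.8 FPKM in atbmi1ab_strong, against 1.46 and 1.08 FPKM in WT (1.85 ± 0.22). BAN and TT16, which mark the seed coat, and the endosperm genes ALE1 and AGL36 were listed at 0 in all 4 libraries. The part of such cells in the seed result was not tested. In whole seedlings, fewer cells of a type and less RNA per cell cannot be told apart.

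Photosynthesis transcripts moved opposite to the seed genes. Light-harvesting proteins held 0.288% and 0.326% of the FPKM sum in atbmi1ab_strong, against 10.5% and 12.1% in WT. LHCB1.4, an antenna protein of photosystem II, was at 3.44 and 4.82 FPKM in atbmi1ab_strong, against 3203 and 4818 FPKM in WT (-9.59 ± 0.22; adjusted p = 5.42e-08). LHCB4.2 and LHCB1.1 were at 12.2 and 17.9 FPKM in atbmi1ab_strong, against 3098 and 3984 FPKM in WT (-7.79 ± 0.20), and at 39.8 and 57.4 FPKM in atbmi1ab_strong, against 9330.3 and 11204 FPKM in WT (-7.71 ± 0.17). In total 20 of 21 light-harvesting genes fell, with a median of -5.18, and LHCB7 fell least (-1.73 ± 0.20). LHCB4.3, an antenna gene known as induced by strong light, rose to 58.8 and 70.1 FPKM in atbmi1ab_strong, against 10.0 and 9.17 FPKM in WT (2.62 ± 0.14). Members of the LHCB1 and LHCB2 groups are near-identical, so their split is uncertain.

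All 30 nuclear photosystem and electron transport genes, all 20 Calvin cycle genes and all 11 tested photorespiration genes fell, with medians of -4.45, -4.34 and -4.34. The size differed within each set. The photosystem I subunit PSAH2 was at 28.4 and 37.3 FPKM in atbmi1ab_strong, against 1713 and 1805 FPKM in WT (-5.71 ± 0.13), and the ferredoxin gene FD1, the smallest change of its list, was at 112 and 108 FPKM in atbmi1ab_strong, against 312 and 270.3 FPKM in WT (-1.4 ± 0.17). Rubisco small-subunit genes differed too: RBCS2B was at 7.2 and 8.33 FPKM in atbmi1ab_strong, against 2833 and 3086 FPKM in WT (-8.4 ± 0.14) and RBCS1A at 762 and 836 FPKM in atbmi1ab_strong, against 14842 and 15398 FPKM in WT (-4.24 ± 0.095). Rubisco activase RCA was at 43.9 and 44.7 FPKM in atbmi1ab_strong, against 4213 and 4296 FPKM in WT (-6.55 ± 0.13). Among the Calvin cycle genes TIM fell least (-1.13 ± 0.079), and PGK1 fell by a similar amount (-1.14 ± 0.091). GLU1, the glutamate synthase of photorespiration, fell by 5.76 ± 0.14 on the log2 scale.

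Chlorophyll synthesis genes fell in 23 of 24 cases (median -3.1). The reductase PORB was at 7.45 and 9.33 FPKM in atbmi1ab_strong, against 336 and 404 FPKM in WT (-5.3 ± 0.17) and CRD1, of ring formation, at 62.1 and 64.7 FPKM in atbmi1ab_strong, against 1316 and 1535 FPKM in WT (-4.47 ± 0.11). HEMA2, the less light-dependent copy of the first committed enzyme, rose (1.19 ± 0.41), a call lost without any 1 of the 4 libraries, whereas HEMA1 fell (-2.54 ± 0.25). Among 17 greening regulators 13 fell and 3 rose. GLK2 and GLK1, transcription factors that switch on chloroplast genes, were at 9.99 and 9.38 FPKM in atbmi1ab_strong, against 114 and 115 FPKM in WT (-3.44 ± 0.16), and at 4.31 and 7.08 FPKM in atbmi1ab_strong, against 46.7 and 49 FPKM in WT (-2.9 ± 0.18). PIF4 and PIF5, bHLH factors of shade and warmth growth, were at 1.96 and 1.98 FPKM in atbmi1ab_strong, against 58.4 and 68.7 FPKM in WT (-4.44 ± 0.16), and at 4.55 and 5.26 FPKM in atbmi1ab_strong, against 87.4 and 92.5 FPKM in WT (-3.95 ± 0.085). HYH, HY5 and SIG5 were higher than in WT (1.51 ± 0.16, 0.65 ± 0.18 and 1.06 ± 0.22), the HY5 call being lost without atbmi1ab_strong replicate 1 or WT replicate 1. Set against the 4 single-mutant libraries in place of WT, however, 17 of the 17 regulators were called lower and 0 higher, so the 3 rises depended on WT as the reference.

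**Figure D4:**
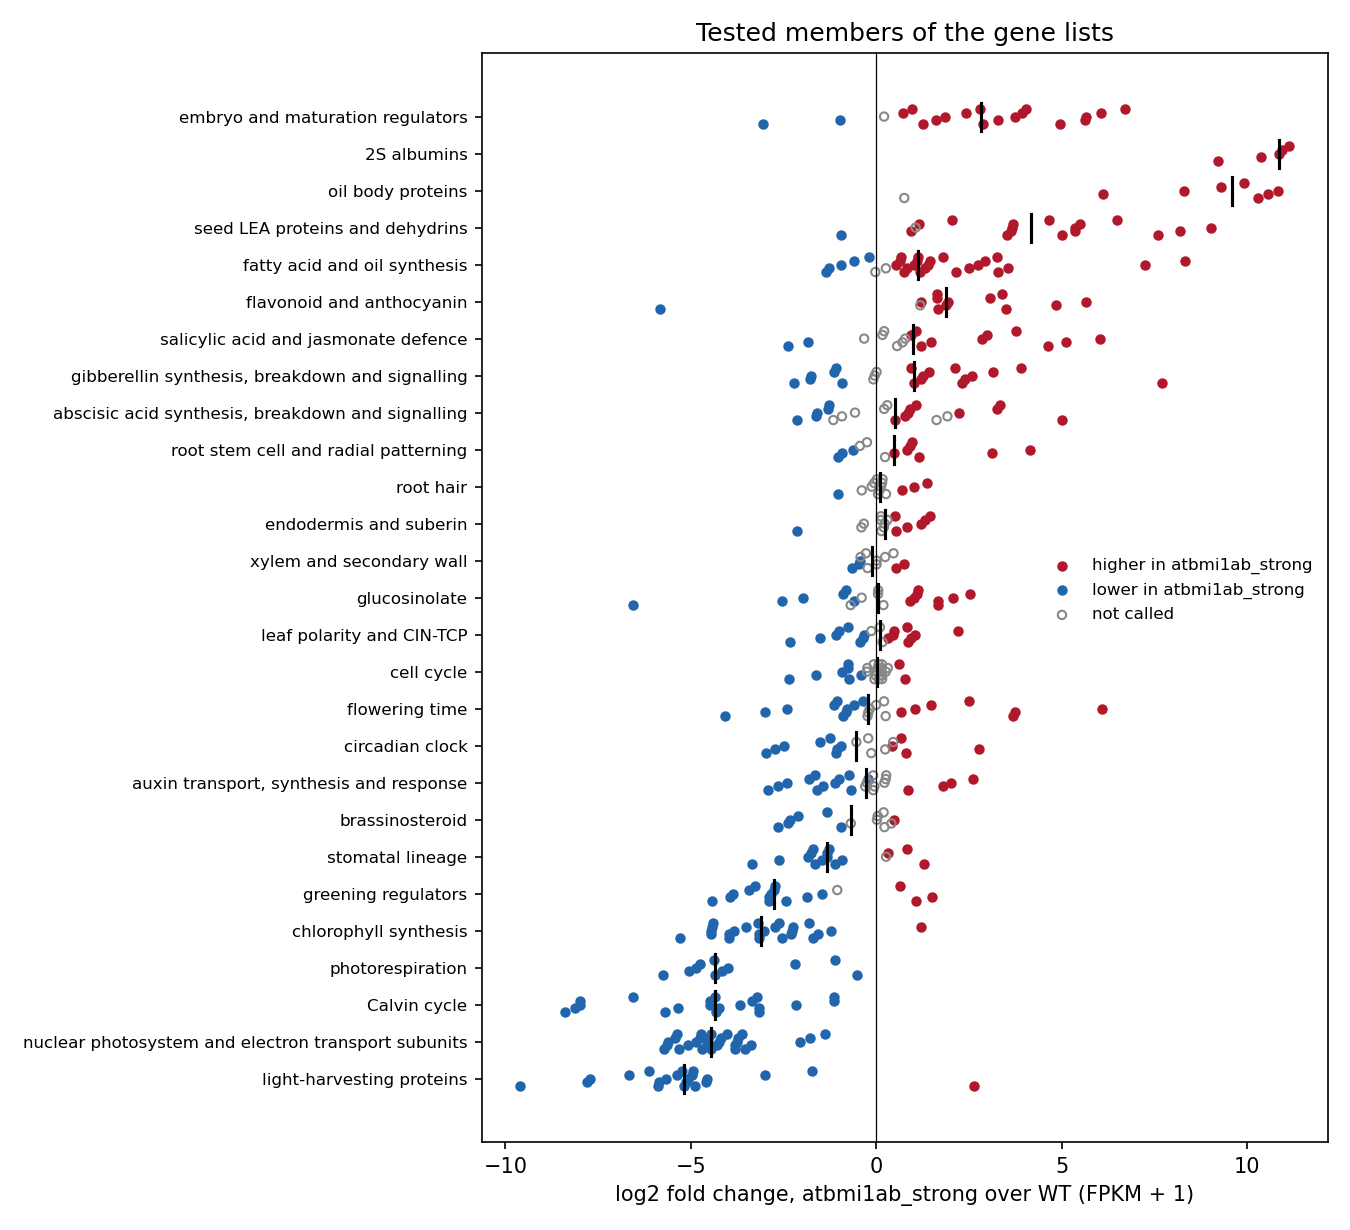
Log2 fold change of atbmi1ab_strong over WT for every tested member of 27 gene lists (filled, called higher or lower; open, not called; black bars, list medians). Medians of the seed lists lie to the right of 0 and those of the photosynthesis lists to the left. The root hair, endodermis, xylem and cell cycle lists have medians near 0 and members on both sides.

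Lists of root genes were called in both directions, beside 31.8% higher and 32.6% lower of all tested loci. Of 14 root hair genes 3 rose, 1 fell and 10 were not called, and of 12 tested xylem genes 2 rose, 3 fell and 7 were not called. Of 15 tested endodermis and suberin genes 6 rose and 1 fell, and of 13 tested root stem cell and radial patterning genes 7 rose and 3 fell. Root hair genes summed to 149 and 142 FPKM in atbmi1ab_strong, against 149.6 and 136 FPKM in WT, endodermis and suberin genes to 249 and 234 FPKM in atbmi1ab_strong, against 213 and 193 FPKM in WT. CASP1, a protein of the Casparian strip that seals the endodermis, was at 52 and 45.5 FPKM in atbmi1ab_strong, against 40.3 and 38.5 FPKM in WT (0.30 ± 0.13; called higher with only the compared groups and with the single mutants as reference), and COBL9, needed for root hair growth, was at 5.06 and 4.64 FPKM in atbmi1ab_strong, against 5.29 and 4.33 FPKM in WT (0.013 ± 0.21). The root hair regulator RHD6 rose to 6.27 and 5.04 FPKM in atbmi1ab_strong, against 1.49 and 1.68 FPKM in WT (1.36 ± 0.17), and ASFT, of suberin synthesis, to 31.2 and 40.9 FPKM in atbmi1ab_strong, against 14.1 and 13.6 FPKM in WT (1.31 ± 0.18). With the single mutants as reference 10 root hair genes were called higher and 0 lower.

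The root hair, endodermis and xylem lists were low in the triple mutant. Root hair genes summed to 46.3 and 36.6 FPKM in atbmi1abc, against 149 and 142 FPKM in atbmi1ab_strong, endodermis and suberin genes to 27.6 and 25 FPKM in atbmi1abc, against 249 and 234 FPKM in atbmi1ab_strong, and xylem genes to 6.88 and 8.59 FPKM in atbmi1abc, against 92.5 and 78.9 FPKM in atbmi1ab_strong. Against atbmi1ab_strong, 13 of 14 root hair, 14 of 15 endodermis and suberin and 10 of 12 xylem genes were called lower in atbmi1abc, beside 25.2% of all tested loci, and 0 of each list were called higher. CASP1 was at 0 and 0.131 FPKM in atbmi1abc (-5.54 ± 0.13), and CASP4, CASP5 and CYP86A1 were listed at 0 in both atbmi1abc libraries. The tonoplast aquaporin TIP2;2, typical of roots, was at 1.06 and 2.0 FPKM in atbmi1abc, against 195 and 193 FPKM in atbmi1ab_strong (-6.29 ± 0.22). Of the 13 root stem cell and radial patterning genes 7 were higher and 1 lower in atbmi1abc than in atbmi1ab_strong. In that comparison 32.1% of all tested loci were higher and 25.2% lower. WOX5, which keeps root stem cells, was at 46 and 39.6 FPKM in atbmi1ab_strong, against 2.02 and 1.02 FPKM in WT (4.14 ± 0.32), and at 15.8 and 28.2 FPKM in atbmi1abc (-0.98 ± 0.32 against atbmi1ab_strong, a call lost without either atbmi1ab_strong library or atbmi1abc replicate 1). The WOX5 call of atbmi1abc against atbmi1ab_strong was also lost with a pseudocount of 0.1. Against WT, AIL6 rose in atbmi1ab_strong by 3.11 ± 0.15, and SCR by 0.96 ± 0.11.

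**Figure D5:**
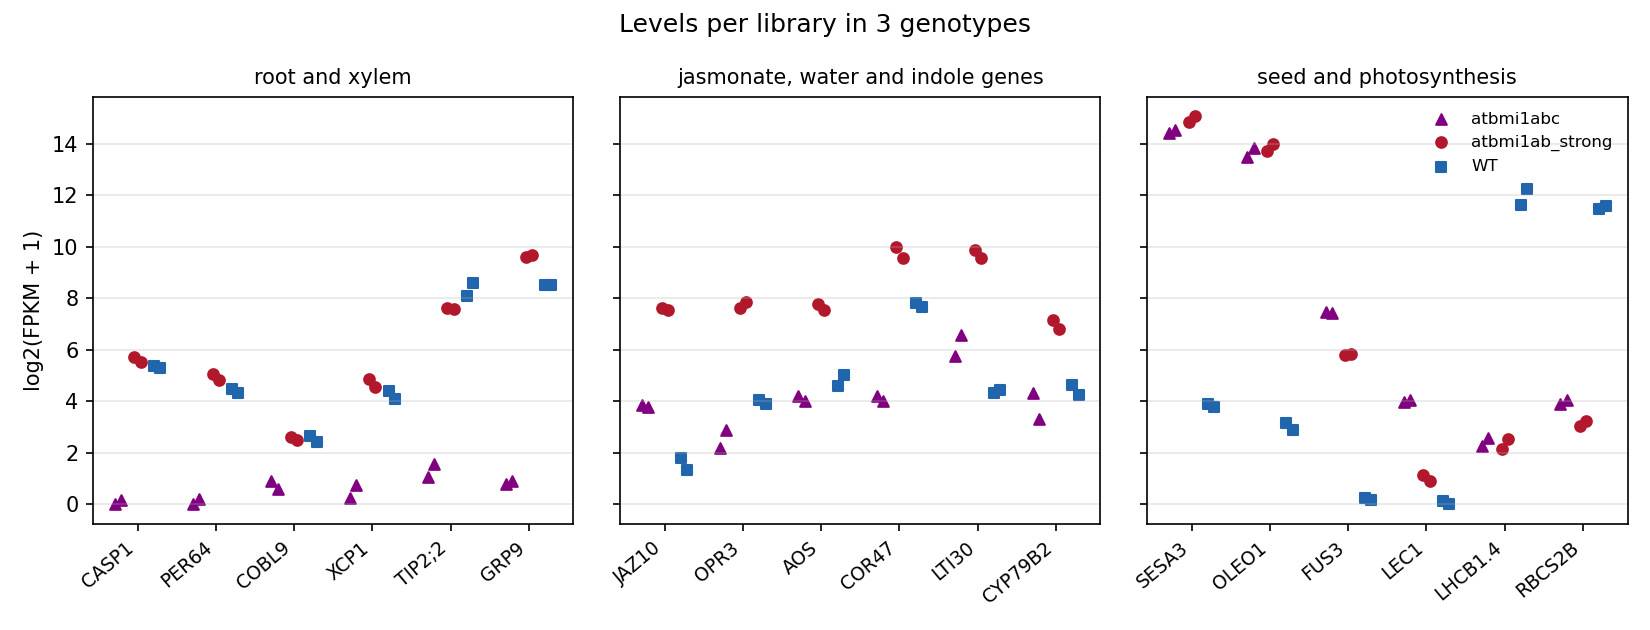
Level of 18 genes as log2(FPKM + 1) in atbmi1abc (triangles), atbmi1ab_strong (circles) and WT (squares), with 1 point per library (n = 2 each). Root and xylem genes are high in atbmi1ab_strong and WT and near 0 to 2 in atbmi1abc. The middle panel's genes are highest in atbmi1ab_strong. SESA3, OLEO1 and LHCB1.4 lie close together in both mutants, while RBCS2B lies somewhat higher in atbmi1abc than in atbmi1ab_strong.

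A group of jasmonate and wound-type genes was highest in the double mutant. JAZ10, a repressor that jasmonate itself induces, was at 198 and 187 FPKM in atbmi1ab_strong, against 2.52 and 1.5 FPKM in WT (6.02 ± 0.67; adjusted p = 0.000116). JAZ5 and JAZ1, of the same family, were at 40.7 and 37.2 FPKM in atbmi1ab_strong, against 0.228 and 0.0768 FPKM in WT (5.12 ± 0.77), and at 320.1 and 267 FPKM in atbmi1ab_strong, against 11.6 and 10.3 FPKM in WT (4.62 ± 0.67). The jasmonate synthesis genes OPR3 and AOS were at 195 and 229 FPKM in atbmi1ab_strong, against 15.5 and 13.8 FPKM in WT (3.76 ± 0.56), and at 221 and 184 FPKM in atbmi1ab_strong, against 23.5 and 31.2 FPKM in WT (2.85 ± 0.28). CYP94C1, which inactivates the hormone, was at 76.5 and 116 FPKM in atbmi1ab_strong, against 0.80 and 0.977 FPKM in WT (5.66 ± 0.33). JAZ10 was at 3.33 to 25.3 FPKM in the 4 single-mutant libraries, all above WT and below atbmi1ab_strong, and OPR3 at 13.5 to 57.7 FPKM in the 4 single-mutant libraries, the lowest of which lay below WT.

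Other jasmonate markers were not higher. VSP2 was at 4.63 and 2.22 FPKM in atbmi1ab_strong, against 1.47 and 2.38 FPKM in WT and not called (0.56 ± 0.36), LOX2 was not called (0.21 ± 0.34), and VSP1 fell to 2.71 and 1.32 FPKM in atbmi1ab_strong, against 10.14 and 19.9 FPKM in WT (-2.38 ± 0.34). On the salicylic acid side EDS5, a transporter of its synthesis, was at 37.9 and 38.2 FPKM in atbmi1ab_strong, against 4.18 and 3.73 FPKM in WT (2.98 ± 0.18), PR1, listed at 0 in both WT libraries and at 1.34 and 0.254 FPKM in atbmi1ab_strong, was not called and PR5 fell (-1.83 ± 0.12). PR1 was called higher with a pseudocount of 0.1 (2.84). Of 18 tested defence genes 10 rose and 2 fell, beside 31.8% and 32.6% of all tested loci. In the triple mutant 15 of the 18 were lower than in the double mutant and 0 higher. In that comparison 25.2% of all tested loci were lower and 32.1% higher. JAZ10 was at 13.4 and 12.6 FPKM in atbmi1abc (-3.79 ± 0.67) and OPR3 at 3.5 and 6.32 FPKM in atbmi1abc (-5.21 ± 0.56). RAP2.6, an ERF-type factor, had the same order, at 0.87 and 2.79 FPKM in atbmi1abc and 236 and 198 FPKM in atbmi1ab_strong, against 6.34 and 6.99 FPKM in WT. The summed defence list came to 1204 and 1092 FPKM in atbmi1ab_strong, against 165 and 175 FPKM in WT.

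Glucosinolates, sulfur compounds that deter herbivores, are made from tryptophan (indole type) or methionine (aliphatic type). Of 19 tested genes 8 rose and 6 fell, beside 31.8% and 32.6% of all tested loci. CYP79B2 and CYP83B1, of the indole route, were at 142 and 111 FPKM in atbmi1ab_strong, against 24.1 and 18.201 FPKM in WT (2.52 ± 0.37), and at 203 and 169 FPKM in atbmi1ab_strong, against 62.7 and 52.6 FPKM in WT (1.67 ± 0.21), and their regulator MYB122 rose by 1.67 ± 0.20. CYP79B3, a close copy of CYP79B2, fell (-0.83 ± 0.16). MAM1, which extends methionine chains, fell to 20.5 and 19.1 FPKM in atbmi1ab_strong, against 83.8 and 79.3 FPKM in WT (-1.99 ± 0.15), though MAM3, of the same step, rose (1.12 ± 0.29), a call lost without atbmi1ab_strong replicate 2 or WT replicate 2. The myrosinases TGG2 and TGG1, which cleave glucosinolates and mark guard cells and myrosin cells, were at 0.256 and 0.398 FPKM in atbmi1ab_strong, against 119 and 128 FPKM in WT (-6.56 ± 0.11), and at 103 and 131 FPKM in atbmi1ab_strong, against 704 and 670.2 FPKM in WT (-2.56 ± 0.13). In atbmi1abc 18 of the 19 genes were lower than in atbmi1ab_strong and 0 higher, beside 25.2% and 32.1% of all tested loci.

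Gene families, grouped by gene symbol, differed in their counts. Of 19 tested loci with an ERF symbol 6 rose and 6 fell, near the shares of all tested loci (31.8% and 32.6%). The ERF symbols include ERF1-2, a eukaryotic release factor gene that fell. Of 24 receptor kinase genes of the CRK family 7 rose and 6 fell. Of 18 CIPK genes, of calcium signalling, 2 rose and 9 fell. Of 23 tested tau-class glutathione transferase genes (GSTU) 16 rose and 1 fell (median 1.31), led by GSTU4, at 68.5 and 69.4 FPKM in atbmi1ab_strong, against 0.897 and 0.703 FPKM in WT (5.28 ± 0.14), GSTU6 (4.98 ± 0.32) and GSTU5 (4.07 ± 0.26). A run of 7 neighbouring loci on chromosome 2, GSTU7, GSTU6, GSTU5, GSTU4, GSTU2, GSTU1 and a small heat-shock gene (AT2G29500), were all higher by more than 1 (TAIR10.1, 12617936 to 12634120). WRKY factors, regulators of defence, rose in 27 of 49 cases and fell in 8, with WRKY46 at 120.1 and 64 FPKM in atbmi1ab_strong, against 0.906 and 0.562 FPKM in WT (5.68 ± 0.87) and WRKY18 at 114 and 133 FPKM in atbmi1ab_strong, against 5.05 and 4.33 FPKM in WT (4.45 ± 0.75). WRKY46 was also at 8.39 to 48.2 FPKM in the 4 single-mutant libraries, and with these as reference its log2 fold change was 1.84 (adjusted p = 0.0613). Glycosyltransferase genes (UGT) rose in 27 of 50 cases and fell in 11, UGT84A2, of sinapate ester synthesis, at 412 and 424 FPKM in atbmi1ab_strong, against 7.69 and 6.97 FPKM in WT (5.65 ± 0.36).

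Flavonoid genes rose in 11 of 13 cases and 1 fell (median 1.89). FLS1, of flavonol synthesis, was at 157 and 175 FPKM in atbmi1ab_strong, against 2.65 and 2.03 FPKM in WT (5.65 ± 0.35) and F3H, upstream of it, at 189.6 and 202 FPKM in atbmi1ab_strong, against 5.57 and 6.09 FPKM in WT (4.85 ± 0.27), while MYBL2, a MYB repressor of the pathway, was at 2.12 and 1.56 FPKM in atbmi1ab_strong, against 143 and 182 FPKM in WT (-5.84 ± 0.37). The single mutants were also above WT, with F3H at 43.1 to 159 FPKM in the 4 single-mutant libraries. With them as reference 6 flavonoid genes were higher and 3 lower, and the median was 0.61. Small heat-shock and heat-shock factor genes rose in 8 of 14 cases and fell in 2 against WT, but against the single mutants 2 were higher and 6 lower (median -0.68, against 1.16 with WT), so their direction depended on the reference. HSP101, a chaperone, was at 33.2 and 39.4 FPKM in atbmi1ab_strong, against 3.5 and 3.65 FPKM in WT, and at 14.6 to 100.4 FPKM in the 4 single-mutant libraries.

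Gibberellin genes rose in 12 of 21 cases and fell in 6, beside 31.8% and 32.6% of all tested loci. GA20OX3, a late synthesis enzyme, was at 288 and 359.9 FPKM in atbmi1ab_strong, against 0.561 and 0.566 FPKM in WT (7.69 ± 0.73), and the inactivating enzymes GA2OX2 and GA2OX6 rose as well (3.89 ± 0.32 and 3.14 ± 0.72). The receptors GID1C and GID1A fell (-2.22 ± 0.15 and -1.16 ± 0.14) while GID1B rose (1.02 ± 0.18). For abscisic acid, the hormone of dormancy, NCED9, a seed-type synthesis enzyme, was at 30.9 and 34.7 FPKM in atbmi1ab_strong, against 0.0405 and 0.0817 FPKM in WT (4.99 ± 0.45), and the breakdown enzyme CYP707A1 at 41.1 and 41.9 FPKM in atbmi1ab_strong, against 3.1 and 3.37 FPKM in WT (3.33 ± 0.31). ABA1, the leaf-expressed first step, fell (-2.14 ± 0.12), as did the signalling kinase gene SNRK2.2 (-1.63 ± 0.11). With the single mutants as reference neither SNRK2.2 (-0.21) nor GA2OX6 (1.55) was called.

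Of 24 tested auxin transport, synthesis and response genes 4 rose and 12 fell. Counts in this paragraph stand beside 31.8% higher and 32.6% lower of all tested loci. PIN4, PIN7 and PIN3, efflux carriers, were lower (-2.93 ± 0.14, -2.64 ± 0.10 and -2.42 ± 0.19), with PIN7 at 13.2 and 15.7 FPKM in atbmi1ab_strong, against 95.4 and 94.5 FPKM in WT. PIN2, the carrier of the root epidermis, was at 43.3 and 38.7 FPKM in atbmi1ab_strong, against 9.31 and 9.67 FPKM in WT (2.0 ± 0.23), and YUC4, an auxin synthesis gene, was at 7.99 and 8.19 FPKM in atbmi1ab_strong, against 0.452 and 0.534 FPKM in WT (2.61 ± 0.23). SAUR genes, rapid auxin-induced growth genes, fell in 12 of 15 cases and rose in 0 (median -2.83): SAUR20 was at 0.222 and 0.231 FPKM in atbmi1ab_strong, against 14 and 14.6 FPKM in WT (-3.64 ± 0.18), and SAUR23 was listed at 0 in both mutant libraries. IAA29, an early auxin response gene, fell to 0.264 and 0.182 FPKM in atbmi1ab_strong, against 26.4 and 29.2 FPKM in WT (-4.56 ± 0.26). The 4 single-mutant libraries were below WT too. IAA29 was at 0.729 to 2.1 FPKM there, SAUR23 at 0.878 to 2.87 FPKM and SAUR20 at 4.11 to 8.87 FPKM. Of 13 brassinosteroid genes 6 fell and 1 rose, CPD, of synthesis, at -2.66 ± 0.096 and the transcription factor BES1 at -2.37 ± 0.086. Cytokinin genes rose in 8 and fell in 6 of 20 cases, with the degrading enzyme CKX3 at 15.7 and 17.2 FPKM in atbmi1ab_strong, against 0.463 and 0.311 FPKM in WT (3.65 ± 0.19) and LOG4, of activation, at 3.13 ± 0.22.

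Shoot gene lists differed in direction, beside 31.8% higher and 32.6% lower of all tested loci. Of 16 stomatal lineage genes 12 fell and 3 rose (median -1.33). FAMA, which ends guard cell formation, was at 0.647 and 0.287 FPKM in atbmi1ab_strong, against 13.6 and 14.3 FPKM in WT (-3.36 ± 0.16), POLAR and SCRM2 fell (-1.85 ± 0.13 and -1.77 ± 0.16), and MUTE was listed at 0 in both mutant libraries. SCRM and the receptor ERL1 rose (0.84 ± 0.12 and 1.27 ± 0.13). Leaf polarity and CIN-TCP genes were evenly split, 8 higher and 8 lower of 19: AN3, a growth coactivator, was at 70.9 and 73.6 FPKM in atbmi1ab_strong, against 15.5 and 14.6 FPKM in WT (2.19 ± 0.083), and TCP2, which ends leaf cell division, was at 1.44 and 2.4 FPKM in atbmi1ab_strong, against 13.6 and 13.1 FPKM in WT (-2.32 ± 0.17). Of 13 TCP family members 10 fell and 2 rose. In the shoot meristem, STM was not called, at 2.84 and 2.63 FPKM in atbmi1ab_strong, against 2.7 and 2.67 FPKM in WT (0.019 ± 0.15), and the boundary genes CUC1 and CUC3 rose (2.02 ± 0.16 and 1.3 ± 0.17).

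The cell cycle list had 2 of 26 genes higher and 7 lower, below the shares of all loci. CDKB2;1, a mitotic kinase gene, was at 16.6 and 15.3 FPKM in atbmi1ab_strong, against 16.3 and 16.1 FPKM in WT (-0.023 ± 0.096). The D-type cyclin CYCD3;2 fell (-1.61 ± 0.14), and the inhibitor KRP1 fell to 1.2 and 2.49 FPKM in atbmi1ab_strong, against 10.9 and 15.9 FPKM in WT (-2.36 ± 0.24). With the single mutants as reference 0 were higher and 13 lower. In the epidermis LTP2, a lipid transfer protein, was at 4478 and 5019 FPKM in atbmi1ab_strong, against 265 and 137 FPKM in WT (4.63 ± 0.44), while its relative LTP1 was at 156 and 147 FPKM in atbmi1ab_strong, against 811 and 773 FPKM in WT (-2.38 ± 0.082). GL2, a regulator of epidermal fate, fell (-1.48 ± 0.11).

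Of 23 tested flowering-time genes 7 rose and 10 fell, beside 31.8% and 32.6% of all tested loci. MFT, a seed germination member of the FT family, was at 249.9 and 296 FPKM in atbmi1ab_strong, against 2.79 and 3.28 FPKM in WT (6.08 ± 0.22). FLC, the main floral repressor and a Polycomb target, was at 64.6 and 77.7 FPKM in atbmi1ab_strong, against 3.2 and 6.06 FPKM in WT (3.72 ± 0.34), and its relative MAF5 at 14.7 and 16.5 FPKM in atbmi1ab_strong, against 0.432 and 0.174 FPKM in WT (3.67 ± 0.17). SVP, a repressor that works with FLC, was at 1.51 and 1.51 FPKM in atbmi1ab_strong, against 37.3 and 46.2 FPKM in WT (-4.08 ± 0.21), and SOC1, a floral activator, at 0.752 and 1.56 FPKM in atbmi1ab_strong, against 14.7 and 17.36 FPKM in WT (-3.0 ± 0.26). SPL3, of the shift to the adult phase, fell to 0.267 and 0.0921 FPKM in atbmi1ab_strong, against 7.33 and 9.12 FPKM in WT (-2.96 ± 0.23). Of 18 floral identity genes 5 passed the filter, and SEP3 fell (-2.58 ± 0.34). AG was at 0 and 0 FPKM in atbmi1ab_strong, against 0.161 and 0.0543 FPKM in WT, and AP1 at 0.0681 and 0 FPKM in atbmi1ab_strong, against 0 and 0 FPKM in WT. Of 17 circadian clock genes 4 rose and 8 fell. RVE4, of the morning, fell to 20.9 and 25.2 FPKM in atbmi1ab_strong, against 174 and 199 FPKM in WT (-2.97 ± 0.13) and CCA1, another morning gene, to 8.84 and 8.61 FPKM in atbmi1ab_strong, against 55.1 and 52.8 FPKM in WT (-2.5 ± 0.12), and PRR3 rose (2.75 ± 0.25). The labels give no harvest hour, so a change of level and a change of phase cannot be told apart.

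Of 17 tested nitrogen and sugar status genes 5 rose and 8 fell, beside 31.8% and 32.6% of all tested loci. BAM5, the main beta-amylase activity of the plant, was at 338 and 372 FPKM in atbmi1ab_strong, against 0.519 and 0.242 FPKM in WT (8.02 ± 0.81). GLN2, the chloroplast glutamine synthetase, was at 49.3 and 48.2 FPKM in atbmi1ab_strong, against 1213 and 1051 FPKM in WT (-4.51 ± 0.099), and the dark-induced gene SEN1 (AT4G35770) at 27.9 and 11.7 FPKM in atbmi1ab_strong, against 1680.0 and 2078 FPKM in WT (-6.61 ± 0.33). SEN1 was far below WT in the single mutants too, at 86.9 to 151 FPKM in the 4 single-mutant libraries. SWEET11, a sucrose exporter of phloem loading, fell to 11.2 and 14.9 FPKM in atbmi1ab_strong, against 159 and 168 FPKM in WT (-3.56 ± 0.16), while SWEET7, a sugar transporter of the same family, was at 104 and 126 FPKM in atbmi1ab_strong, against 0.156 and 0 FPKM in WT (6.75 ± 0.86). NIA2 and NIA1, nitrate reductases, fell (-2.54 ± 0.22 and -2.17 ± 0.42).

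At some loci 1 group was listed at 0. Both WT libraries listed 0 and both mutant libraries at least 1 FPKM at 208 loci. Of these, 126 were also at 1 FPKM or more in both atbmi1abc libraries, and 23 were at 0 in all 4 single-mutant libraries. Any value above 0 in 1 single-mutant library keeps a locus out of the 23. SDH2-3, a succinate dehydrogenase subunit known from seeds, was the highest of those with a gene symbol, at 118 and 156 FPKM in atbmi1ab_strong. It was at 6.18 FPKM in atbmi1a replicate 1 and at 0.0633 to 0.287 FPKM in the other single-mutant libraries. CYP71A15 was at 54.7 and 80.8 FPKM in atbmi1ab_strong and GASA2, of a gibberellin-regulated family, at 32.1 and 69.5 FPKM in atbmi1ab_strong. DIR5, a dirigent protein gene, was at 57.8 and 48.6 FPKM in atbmi1ab_strong and listed at 0 in both atbmi1abc libraries, and DDF1, a dehydration response factor, was at 28.1 and 21.8 FPKM in atbmi1ab_strong, beside 0.949 and 0 FPKM in atbmi1abc.

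The reverse held at 60 loci, listed at 0 in both mutant libraries with at least 1 FPKM in both WT libraries. Of these, 35 were also at 0 in both atbmi1abc libraries, and 34 were at 1 FPKM or more in all 4 single-mutant libraries. PKS4, a phytochrome-linked growth regulator, was at 28.3 and 35.4 FPKM in WT, the defensin PDF1.5 at 9.68 and 18.4 FPKM in WT, and the MADS-box gene SEP4 at 3.27 and 4.03 FPKM in WT.

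Changed genes also lay side by side. Where a locus was higher by more than 1, the next tested locus on the chromosome was so too in 22.8% of cases, beside 17.3% of all tested loci. For loci lower by more than 1 the shares were 19.5% and 14.97%. Runs of higher neighbours included 5 genes of the 2S albumin and lipid-transfer superfamily on chromosome 5 (AT5G38160 to AT5G38197, median 2.94) and the oleosin-like GRP17, GRP19 and GRP20. GRP19 was at 40.4 and 33 FPKM in atbmi1ab_strong, against 0.612 and 0.179 FPKM in WT (4.77 ± 0.70). Runs of lower neighbours included 5 loci of the same superfamily on chromosome 4 (AT4G22485 to AT4G22517), with a median of -6.60, and 6 CYP71B genes on chromosome 3, with a median of -2.55. These runs hold tandem copies with shared sequence, so reads may have been split among their members.

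The double and the triple mutant were compared directly as well. Relative to atbmi1ab_strong, atbmi1abc had 6256 loci (32.1%) higher and 4904 (25.2%) lower, 57.3% in all, with 1005 higher and 3045 lower by more than 1. The median of all loci was 0.10 and became 0.22 under quantile normalization. Of the storage albumins, oil body genes and light-harvesting genes, 0 of 5, 0 of 8 and 4 of 21 were called. Higher in atbmi1abc were 11 of 30 photosystem and electron transport, 11 of 20 Calvin cycle and 14 of 24 chlorophyll synthesis genes. The counts called lower were 0, 0 and 1 in that order. Of the 4 globulin genes CRA1 and CRU3 were called higher. Both calls rest on a listed 0 in both atbmi1ab_strong libraries, which can be a failed estimate. Without atbmi1a replicate 1 the fit called more: 2 albumin genes lower, 1 oil body gene higher, and 2 globulin genes higher and 1 lower. SESA1 was at 3277 and 3880.1 FPKM in atbmi1abc, against 8744 and 9849 FPKM in atbmi1ab_strong (-1.38 ± 1.16), and was 1 of the 2 albumin genes called lower without that library. Of the 20 embryo and maturation regulators 11 were higher in atbmi1abc and 3 lower, with ABI4 at 14.9 and 19.98 FPKM in atbmi1abc, against 4.32 and 4.3 FPKM in atbmi1ab_strong (1.78 ± 0.16), and FUS3 at 179 and 169.9 FPKM in atbmi1abc (1.63 ± 0.54). The FUS3 call was lost without any 1 of the 4 libraries compared and with a pseudocount of 0.1. GRP9, a glycine-rich protein gene, showed the opposite order, at 0.729 and 0.869 FPKM in atbmi1abc, against 779 and 829 FPKM in atbmi1ab_strong (-8.81 ± 0.10).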

How the data were processed

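Per the labels' protocols, Qiagen RNeasy columns were used to prepare RNA from 10-day seedlings, and libraries followed Illumina's standard protocols. FastQC, TopHat, Cufflinks and Cuffdiff and the TAIR10 build are named, per the submitters' processing notes, without versions or settings. The authors deposited 1 FPKM table per library, and no counts, so absolute depth is unknown and no counting interval is given. No 2 of the 10 libraries held identical values (45 pairs compared). The labels give groups and replicate numbers but do not say that replicates came from separate plants, so p-values measure the spread between these libraries only.

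Loci that averaged 1 FPKM or more across the 10 libraries were tested on log2(FPKM + 1) with limma 3.58.1 in R 4.3.3 (eBayes with trend, 1 coefficient per genotype, 5 residual degrees of freedom) and Benjamini-Hochberg adjustment over all 19460 loci. Fold changes on this scale understate the change of low genes. The scripts were tested on simulated data. Tables and figures used Python 3.11.15 with pandas 2.3.3, numpy 2.4.6 and matplotlib 3.10.9. Gene names, coordinates and promoter windows came from RefSeq TAIR10.1, which matched 26441 of 27086 loci, 270 of which were merged loci of several genes.

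The members and the 48 gene lists (791 of 802 genes found) were chosen with earlier results of these data known. Genes named per list were the 6 called members of largest log2 fold change and members that were not called or went against the majority. Per symbol family they were the 3 members of largest fold, and over all loci the 15 highest and 15 lowest and the loci listed at 0 in 1 group. ABI4, COR47, EM1, EM6, FD1, GID1B, HEMA1, LEC1, LHCB7, MAM3, MYB122, NIA1, PGK1, RBCS1A, TIM and WRI1, and the members of the named runs of neighbours, were chosen after their values were seen. Alternatives covered scaling, filters, pseudocount, replicate block, libraries in the fit, organelle genes, the variance trend and the reference group.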

Additional observations from a re-analysis of the deposited data

How the results depend on the processing

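The counts of loci called in atbmi1ab_strong against WT stayed within 1.5 times the reported counts under every alternative run. Alternatives that kept all 4 compared libraries gave 4904 to 6804 higher and 5463 to 6994 lower, and leaving out each compared library in turn gave 5074 to 5371 higher and 5379 to 5529 lower, with the lone library of a group assumed to vary like the others. For atbmi1abc against atbmi1ab_strong leaving out 1 library gave 4618 to 5010 higher and 3997 to 4392 lower, and quantile normalization gave 7801 higher and 4113 lower, which made 65.5% of calls higher, beside 56.1% as reported. Replicate numbers did not pair the libraries: deviations of same-numbered atbmi1ab_strong and WT libraries correlated at -0.171. With the replicate block 6141 loci were higher and 6278 lower, and for atbmi1abc against atbmi1ab_strong 6187 and 4850; the calls of HEMA2 and MSI1 were lost. The crossed pairing, added after the data were seen, gave 6063 higher and 6231 lower. Of the list counts recomputed under the alternatives, 1404 stayed within 1.5 times and 132 did not, 30 of these with the single mutants as reference and 23 with the 5 FPKM filter.

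Some genes changed sign. With the single mutants as reference AtBMI1A had a log2 fold change of -0.76, BPC1 0.18, BRM 0.34, CYP79B3 0.11, GAMMA-VPE 0.17, HSP101 -0.56, HY5 -0.71, HYH -1.25, LOX2 -0.77, PR1 -0.99, SDP1 0.41, SIG5 -0.49, SYD 0.45, VRN5 -0.29 and WOX2 -1.22. With that reference BRM, SDP1 and SYD were called higher, and AtBMI1A, HY5, HYH, LOX2, SIG5, VRN5 and WOX2 lower. BPC1, CYP79B3, GAMMA-VPE, HSP101 and PR1 were not called with it. AtBMI1B, at -0.18, was then not called, and the atbmi1b libraries in that reference lack most of its transcript. The calls of CLF, EMF1, GA2OX6, MAM3, MSI1, SNRK2.2, TIP2;2 and WRKY46 were lost as well with that reference. Quantile normalization gave COBL9 -0.16, STM -0.26 and WOX2 -0.26. Geometric-mean scaling gave BRM 0.0014, and removal of organelle genes gave COBL9 -0.0047. Without 1 compared library each, values ran between -0.11 and 0.13 for COBL9, -0.27 and 0.69 for LOX2, -0.022 and 0.059 for STM, -0.12 and 0.039 for SYD, -0.079 and 0.033 for CDKB2;1 and -0.0090 and 0.42 for WOX2. Of these genes BRM, COBL9, STM, SYD, WOX2, LOX2, PR1, CDKB2;1 and AtBMI1A were not called against WT in the reported fit. The cause of each change was not tested. With 2 libraries per group, no counts and no stated plants, small differences and loci near 0 FPKM are the least certain values.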
